A study of Mus musculus with 12 samples.

Results

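The 40 genes described here encode the machinery of DNA replication and of S phase: the MCM helicase, origin licensing and firing factors, polymerases and primase, the sliding clamp with its loader, enzymes of nucleotide supply, cyclin E with E2F1, and factors that copy chromatin and DNA methylation. They were given as a list of symbols and were taken as every non-control probe whose RefSeq accession mapped to one of them. All 40 had a probe among the 20660 genes named on the array, and 37 lay among the 13351 genes whose probe was well above background in the tumour channel on at least 3 of 12 arrays. Of the remaining members, the origin recognition gene Orc1 and the cyclin gene Ccne2 were above background on 0 of 12 arrays and the clamp loader gene Rfc3 on 1, so no level is given for them. Pola2 passed on 4 arrays and Cdc45 on 8, and the other 35 on 9 or more.

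The arrays come from mammary tumours of FVB mice, all of which carry the MMTV-wnt1 transgene, in which a viral promoter active in mammary epithelium drives the growth factor Wnt1. One genotype is labelled Rarb -/- (KO), a null for the retinoic acid receptor beta gene, and the other is wild type for Rarb (WT). Epithelium and stroma of a tumour were cut apart by laser capture microdissection, and each RNA was labelled with Cy3 and hybridised to a 2-colour Agilent array against one Cy5-labelled reference, a commercial pool of mouse cell line RNA. There were 3 arrays in each of 4 groups, KO epithelium and KO stroma of tumours 1, 3 and 4 and WT epithelium and WT stroma of tumours 1, 2 and 3. The labels give no age, and they do not say that the tumours came from separate mice, so p-values measure only the spread between these samples. Values are log2 ratios of tumour sample over reference, so 0 means a signal equal to that of the reference, and they run opposite to the scanner's own ratio and to the deposited value table. Without a dye swap a ratio can hold a constant dye effect, which is shared by all arrays and so affects levels more than differences between groups.

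Before a cell copies its DNA, the origin recognition complex, Cdc6 and Cdt1 load the MCM ring onto origins, and Cdc45 with the GINS proteins turns that ring into a running helicase. Primase and polymerase alpha start each strand, the clamp PCNA keeps polymerases delta and epsilon on it, and Fen1 and Lig1 finish the lagging strand while ribonucleotide reductase and thymidylate synthase supply nucleotides. Transcription of many of these genes is driven in late G1 by E2F factors, which the retinoblastoma protein holds inactive until cyclin-dependent kinases phosphorylate it, so as a group they are widely read as a sign of cycling cells.

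The labels were set against known genes first. Rarb did not separate the genotypes, at 0.24 ± 1.26 in KO and 0.29 ± 0.91 in WT epithelium (SD, n = 3 per group; limma adjusted p = 0.993). In stroma it was higher in the arrays labelled KO, at 1.5 ± 0.81 against 0.36 ± 0.89 (SD, n = 3 per group; difference 1.14, 2.20-fold), which did not pass (adjusted p = 0.402). Rarb has 2 probes, of which the probe that stood for the gene was above background on all 12 arrays, and the other was not examined. Where they lie relative to the deletion is not stated, so Rarb checks nothing here. Wnt1 stood at 6.53 to 7.67 on the 6 epithelial and the 3 WT stroma arrays but at 2.90 to 3.80 on the 3 KO stroma arrays. Luminal markers had array medians of 2.20 to 3.25 in epithelium, 1.36 to 2.37 in WT stroma and 0.15 to 0.97 in KO stroma, while fibroblast markers had medians of -2.52 to 0.06 in epithelium, -0.51 to 1.18 in WT stroma and 2.58 to 3.29 in KO stroma. The arrays labelled WT stroma thus carried luminal marker levels near those of epithelium, and one of them, WT stroma 2, also had medians of 5.11 for T cell and 4.12 for B cell markers, against at most 0.91 and 0.01 on the other 11 arrays. In RNA from pieces of tissue, fewer cells of a type and less RNA per cell cannot be told apart. Saturated spots were absent, and between 36% (KO stroma 1) and 46.3% of an array's probes had Cy3 well above background. The epithelial arrays lie on one slide and the stromal arrays on another, with KO in the first row and WT in the second, so compartment and slide, and genotype and row, cannot be told apart.

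Because E2F sites are the best known shared feature of these promoters, the sequences just before the start were searched for E2F words. RefSeq promoters of assembly GRCm38.p6, from 250 bases before to 50 after the start, were at hand for 32 of the 40 members, in 39 windows, since some genes have several starts. The words searched on both strands were TTTCCCGC, TTTGGCGC, TTTCGCGC and TTTGCCGC, which can overlap one another. Of the 39 member windows 14 (35.9%) held at least 1 of them, against 744 of 32851 windows in the whole table (2.26%). The window of E2f1, counted here as holding none, may not lie at that gene's main start. These 14 windows belong to 14 genes, 12 of which were measured here, and in 10 windows a word lay before the start. The CCAAT box (CCAAT) was in 56.4% of member windows and 37.4% of all, the GC box (GGGCGG) in 71.8% and 35.7%, and the CHR element of mitotic genes (TTTGAA) in 12.8% and 17.9%. A list of 22 mitosis genes gave the opposite picture for the CHR element and the E2F words over its 20 windows, with 70% and 0. Its CCAAT box (85%) and GC box (75%) were, as in the members, above the shares of all windows. The 8 stretches of 80 bases printed here lie wholly before the start, run 5′ to 3′ along the gene's strand, and show in capitals where the E2F words sit in members whose values follow.
Mcm5 (chr8:75109326-75109405, plus strand): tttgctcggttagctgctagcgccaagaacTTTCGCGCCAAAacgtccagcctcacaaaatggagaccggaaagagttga
Mcm6 (chr1:128359766-128359845, minus strand): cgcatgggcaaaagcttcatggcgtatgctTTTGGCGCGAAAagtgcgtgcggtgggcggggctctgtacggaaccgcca
Mcm7 (chr5:138171999-138172078, minus strand): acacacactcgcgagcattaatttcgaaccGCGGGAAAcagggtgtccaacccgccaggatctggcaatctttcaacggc
Cdc6 (chr11:98907983-98908062, plus strand): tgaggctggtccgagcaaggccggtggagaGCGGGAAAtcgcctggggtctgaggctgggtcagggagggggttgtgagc
Gins3 (chr8:95633479-95633558, plus strand): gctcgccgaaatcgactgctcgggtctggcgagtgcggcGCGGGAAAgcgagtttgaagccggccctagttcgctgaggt
Pola1 (chrX:93632244-93632323, minus strand): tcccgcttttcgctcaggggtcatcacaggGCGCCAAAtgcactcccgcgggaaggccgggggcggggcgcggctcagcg
Uhrf1 (chr17:56304098-56304177, plus strand): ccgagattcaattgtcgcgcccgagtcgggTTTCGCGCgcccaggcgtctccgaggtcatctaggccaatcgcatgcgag
Dnmt1 (chr9:20952793-20952872, minus strand): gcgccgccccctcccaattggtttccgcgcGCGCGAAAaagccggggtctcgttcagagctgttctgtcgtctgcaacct
In Mcm5 and Mcm6 the capitals are 2 words on opposite strands that overlap, and the others hold 1 word each. A match is a description of these letters only.

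Against the reference, replication genes were low on nearly every array. The median of the 37 member means was -0.57 in KO epithelium, -1.01 in WT epithelium, -1.18 in KO stroma and -1.13 in WT stroma, where all 13351 genes had medians between 0 and 0.02. Members below the reference numbered 34, 35, 33 and 35 of 37 in the same order, against 48.9% to 50% of all genes. Levels differed widely between genes in KO epithelium, from -1.64 for the licensing factor gene Cdt1 to 0.84 for the large primase subunit gene Prim2, which was above the reference in all 4 group means. These levels set each gene against its own amount in the reference and do not rank genes by abundance.

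How tightly replicates held together differed between the groups. In WT epithelium the median SD of the members over 3 arrays was 0.67, while that of all genes was 0.30. KO stroma had 0.51 against 0.29. In KO epithelium and WT stroma the members were no more variable than other genes, with 0.26 against 0.27 and 0.20 against 0.29. The member medians of single arrays show where this comes from. KO epithelium 1, 3 and 4 had -0.40, -0.63 and -0.77. WT epithelium 1, 2 and 3 had -1.70, -1.18 and -0.47, so 2 WT arrays lay below all KO arrays and the third among them. KO stroma 1, 3 and 4 had -1.67, -0.94 and -0.80, and WT stroma 1, 2 and 3 had -1.18, -1.22 and -0.94. WT epithelium 1 was the lowest of the 6 epithelial arrays for 29 of 36 members measured on all of them, and KO stroma 1 the lowest of the 6 stromal arrays for 25 of 37. Mitosis genes followed the same order, with medians of -0.44, -0.78 and -1.07 in KO epithelium and -2.45, -1.97 and -0.86 in WT epithelium. In stroma their medians were -2.51, -1.25 and -1.12 for KO and -1.81, -2.06 and -1.47 for WT. The array with the lowest members in stroma, KO stroma 1, also had the smallest share of probes above background (36%).

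**Figure D1:**
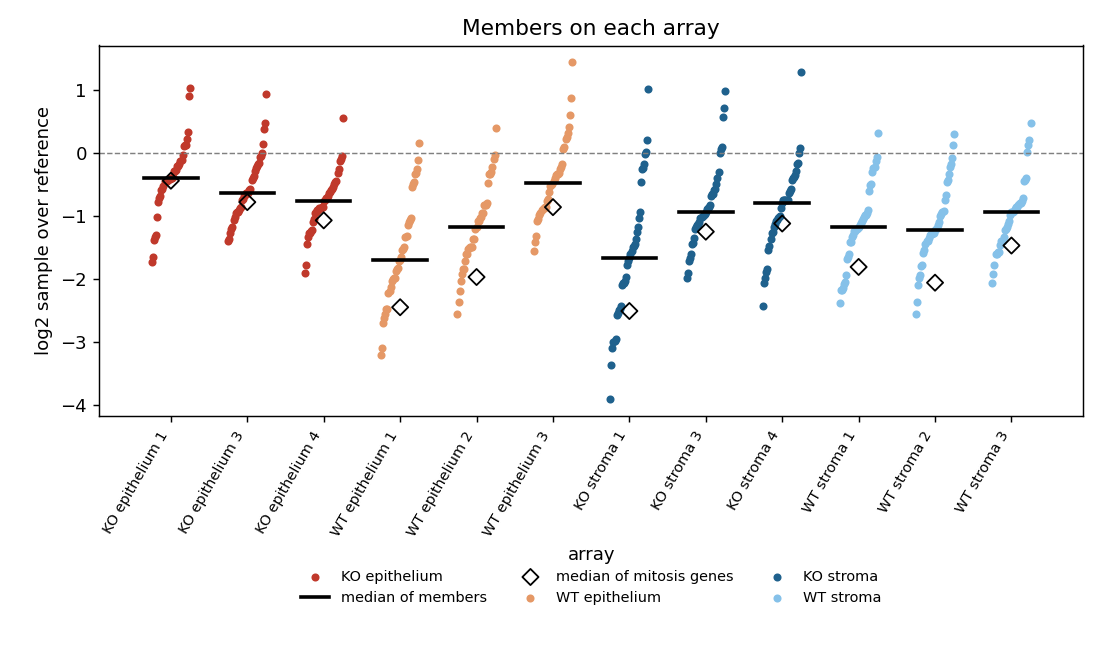
Log2 ratio of sample over reference (vertical axis) of each measured member (points, ordered by value) on each of the 12 arrays, with the median of the members (bar) and of the mitosis genes (diamond). WT epithelium 1 and 2 lie below the KO epithelial arrays, with member medians of -1.70 and -1.18, and WT epithelium 3 (-0.47) lies among them.

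**Figure D2:**
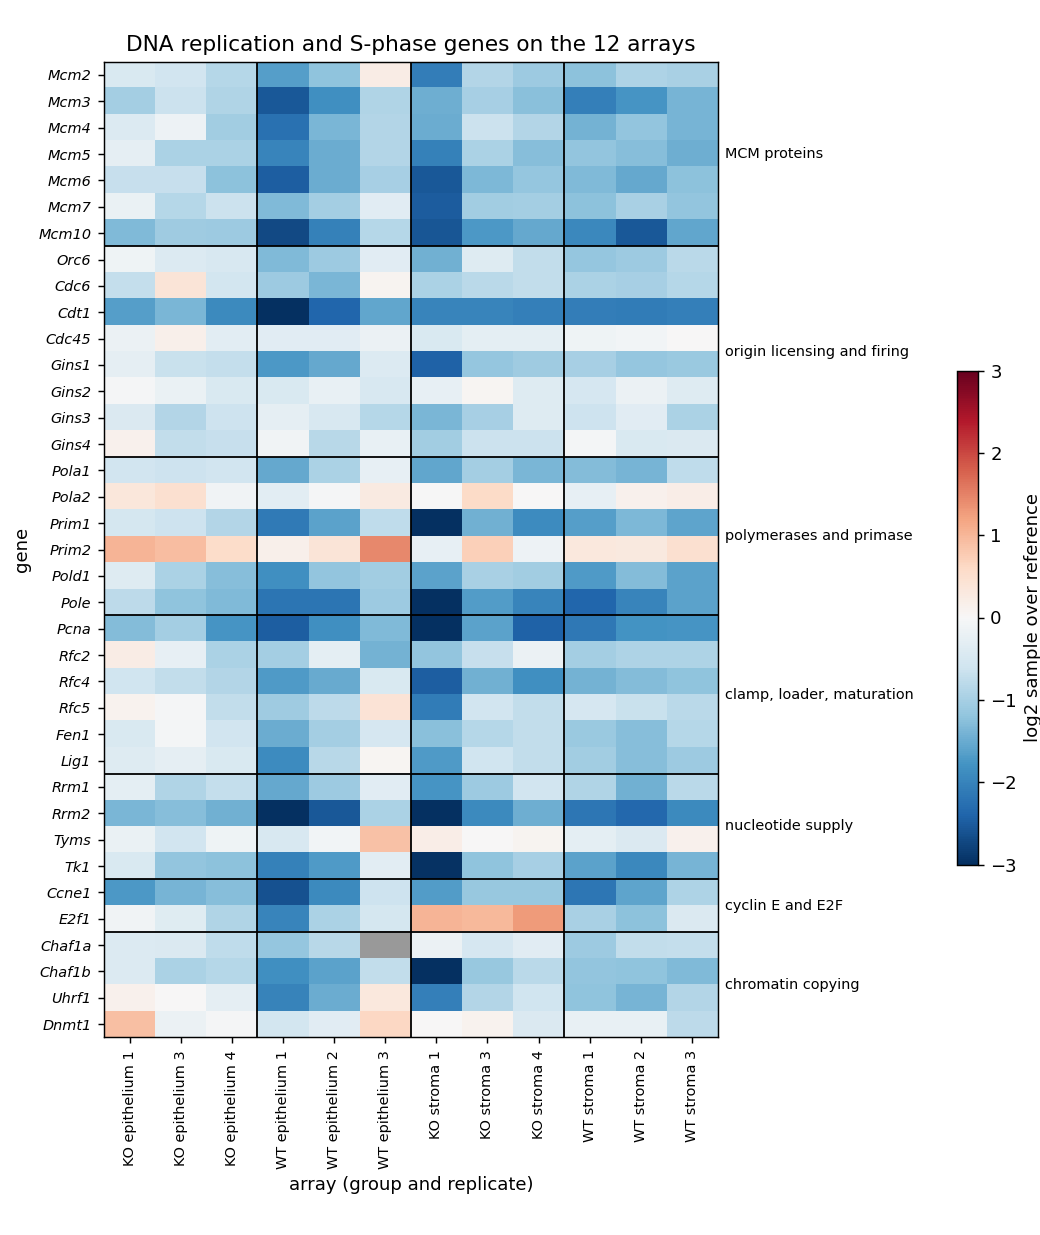
Log2 ratio of sample over reference of the 37 measured members (rows, by role) on the 12 arrays (columns, by group); the colour scale ends at 3 and -3, and grey marks the missing Chaf1a value of WT epithelium 3. E2f1 is above the reference on the 3 KO stroma arrays, at 0.98 to 1.28, and below it on the other 9.

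The first comparison asked whether replication genes differed with the genotype in tumour epithelium. No member passed the test, while 34 of 37 had a positive difference of KO minus WT, with a median of 0.50 on the log2 scale and a range from -0.41 (Tyms) to 1.01 (Uhrf1). Of all genes 53.9% were positive, with a median of 0.03. In this comparison 1 of 13351 genes (0.00749%) was called at a limma adjusted p under 0.05. At an unadjusted p under 0.05 there were 4 members, all higher, namely Mcm3, Mcm4, Cdt1 and Fen1, where 8.08% of all genes passed that level and 5.42% did so as higher. Groups that did not overlap were seen for 1 member, Chaf1a, against 14.1% of all genes. Since members are high or low together on single arrays, their shared sign is not 37 separate observations. Without WT epithelium 1 the member median was 0.25, with 32 positive, and without WT epithelium 3 it was 0.86, with 35 positive.

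In the MCM family, whose Mcm2 to Mcm7 form the helicase ring, all 7 members were positive with a median of 0.73. Mcm4 read -0.42, -0.16 and -1.05 in KO epithelium 1, 3 and 4 and -2.23, -1.36 and -0.88 in WT epithelium 1, 2 and 3. Only WT epithelium 3 reached into the KO range, and the difference was 0.95 (SE 0.36, 1.93-fold; limma adjusted p = 0.613). Mcm3 had -1.02, -0.64 and -0.90 in KO and -2.55, -1.85 and -0.90 in WT, a difference of 0.91 (SE 0.36, adjusted p = 0.613). Mcm5, whose promoter holds the overlapping words shown above, had -0.28, -0.94 and -0.96 in KO and -1.99, -1.49 and -0.89 in WT, a difference of 0.73 (SE 0.34, adjusted p = 0.622). Mcm6 read -0.68, -0.69 and -1.22 in KO and -2.48, -1.50 and -0.99 in WT, giving 0.79 (SE 0.42, adjusted p = 0.654). Across these 4 genes WT epithelium 1 was the lowest array and WT epithelium 3 the highest of its group. The other 3 were Mcm10, which links the helicase to polymerase alpha (-1.17 ± 0.14 in KO, -1.86 ± 0.93 in WT; SD, n = 3 per group), Mcm7 (-0.57 ± 0.33 and -0.89 ± 0.50) and Mcm2 (-0.63 ± 0.21 and -0.88 ± 0.98).

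Among the 8 measured licensing and firing factors 6 were positive, with a median of 0.33. Cdt1, the loader of the MCM ring that geminin restrains, read -1.65, -1.36 and -1.90 in KO and -3.09, -2.37 and -1.56 in WT, a difference of 0.70 (SE 0.31, adjusted p = 0.616). Orc6, the smallest origin recognition subunit, had -0.12, -0.40 and -0.49 in KO and -1.33, -1.08 and -0.34 in WT, a difference of 0.58 (SE 0.31, adjusted p = 0.658). In both genes WT epithelium 1 and 2 were below all KO arrays and WT epithelium 3 was not. Cdc6 averaged -0.29 ± 0.59 in KO and -0.79 ± 0.77 in WT (SD, n = 3 per group). The GINS genes, whose 4 proteins sit on the active helicase, gave unlike differences. Gins1 averaged -0.55 ± 0.25 in KO and -1.22 ± 0.71 in WT, while Gins2 (-0.23 ± 0.21 and -0.39 ± 0.14), Gins3 (-0.64 ± 0.23 and -0.53 ± 0.30) and Gins4 (-0.43 ± 0.48 and -0.39 ± 0.39) were closer together. Cdc45, above background on 4 of the 6 epithelial arrays, had -0.11 ± 0.24 and -0.28 ± 0.09.

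The 6 polymerase and primase genes were all positive, with a median of 0.40, although for Pola2 the reference was above background on 0 of 12 arrays. Prim1, the catalytic primase subunit, read -0.53, -0.63 and -0.87 in KO and -2.13, -1.60 and -0.77 in WT, a difference of 0.83 (SE 0.40, adjusted p = 0.639). Its partner Prim2 averaged 0.84 ± 0.25 in KO and 0.67 ± 0.68 in WT (SD, n = 3 per group), so the subunits of one enzyme gave unlike differences of 0.83 and 0.17. The catalytic subunit genes were Pola1 (-0.59 ± 0.03 and -0.91 ± 0.64), Pold1 (-0.87 ± 0.45 and -1.35 ± 0.42) and Pole (-1.10 ± 0.29 and -1.82 ± 0.64). Pola2, the regulatory subunit of polymerase alpha, averaged 0.24 ± 0.30 and -0.02 ± 0.28, but these are ratios of signals mostly not above background, since its tumour channel was above on 2 of 3 KO and 1 of 3 WT epithelial arrays.

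Clamp, clamp loader and maturation genes were positive in 6 of 6, with a median of 0.51. Fen1, the flap nuclease that trims Okazaki fragments, read -0.45, -0.07 and -0.57 in KO and -1.49, -1.03 and -0.51 in WT, a difference of 0.65 (SE 0.26, 1.57-fold; adjusted p = 0.613). Lig1, which seals those fragments, averaged -0.38 ± 0.09 in KO and -0.88 ± 0.97 in WT (SD, n = 3 per group). Pcna, the sliding clamp, averaged -1.37 ± 0.38 and -1.88 ± 0.58. Of its loader subunits, Rfc4 had -0.74 ± 0.15 and -1.22 ± 0.67, Rfc2 -0.32 ± 0.58 and -0.92 ± 0.57, and Rfc5 -0.23 ± 0.46 and -0.48 ± 0.79. A second Rfc4 probe gave a difference of 0.34, against 0.48 for the first.

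Nucleotide supply held one of the 3 members with a negative difference, the others being Gins3 and Gins4. Tyms, which makes thymidylate, read -0.20, -0.58 and -0.13 in KO and -0.49, -0.09 and 0.88 in WT, a difference of -0.41 (SE 0.31, adjusted p = 0.752), and the groups overlapped with WT epithelium 3 highest. Rrm2, the S-phase subunit of ribonucleotide reductase, averaged -1.37 ± 0.09 in KO and -2.24 ± 1.16 in WT (SD, n = 3 per group). Rrm1, its large subunit, had -0.64 ± 0.31 and -0.99 ± 0.60, and the salvage kinase gene Tk1 had -0.96 ± 0.44 and -1.36 ± 0.91.

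For the G1 to S regulators, E2f1 read -0.11, -0.37 and -0.90 in KO and -1.99, -0.95 and -0.52 in WT, a difference of 0.69 (SE 0.36, adjusted p = 0.655) with overlapping groups. Ccne1, the cyclin that drives Cdk2 at the start of S phase, averaged -1.46 ± 0.24 and -1.72 ± 1.01. Among the chromatin factors, Chaf1a, the large subunit of the histone chaperone CAF-1, read -0.41, -0.43 and -0.77 in KO and -1.15 and -0.83 on the 2 WT arrays that measured it, so the groups did not overlap. Its spot on WT epithelium 3 was dropped as non-uniform, which removes the array that lay among the KO values for most other members, and the difference was 0.45 (SE 0.21, adjusted p = 0.624). Chaf1b, the second CAF-1 subunit, averaged -0.73 ± 0.29 and -1.40 ± 0.59 with a difference of 0.66, and its second probe gave 1.05. Uhrf1, which guides Dnmt1 to newly copied DNA, had the largest difference and is named for that. It read 0.12, 0.00 and -0.26 in KO and -2.0, -1.50 and 0.32 in WT, so that WT epithelium 3 was the highest of all 6, and the difference of 1.01 (SE 0.54) did not pass (adjusted p = 0.658). Dnmt1 itself averaged 0.23 ± 0.59 and -0.09 ± 0.62.

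The split within WT epithelium can be given as counts. WT epithelium 1 lay below all 3 KO arrays for 34 of 37 members and WT epithelium 2 for 31 of 37, where the shares of all genes were 29.9% and 28.6%. Of the 36 members measured on WT epithelium 3, that array lay within the KO range for 22, above all KO arrays for 12 and below them for 2. Of all genes 21.9% had it above all KO arrays. Without WT epithelium 1 the differences of the 10 members with the smallest p were between 0.27 (E2f1) and 0.57 (Mcm4), with limma adjusted p from 0.862 to 0.990. Without WT epithelium 3 those of Cdt1 and Orc6 were 1.09 and 0.87. For Chaf1a the difference was 0.76 with Agilent's processed signals, the scanner software's own background-subtracted and dye-normalised values. Marker medians on the 3 WT arrays were 2.48, 2.20 and 2.44 for luminal, 5.32, 4.84 and 1.66 for basal, -1.01, 0.06 and -1.82 for fibroblast and 0.03, 2.04 and 0.18 for adipocyte genes. The array with the highest members thus had the lowest basal and fibroblast medians of its group, and WT epithelium 3 also carried 211 spots flagged as non-uniform, against at most 16 elsewhere. On the KO arrays 1, 3 and 4 the basal medians were 2.71, 5.32 and 3.09 and the fibroblast medians -1.05, -1.10 and -2.52, and the part of these cells in the result was not tested. Between genotypes, 13 of 15 fibroblast, 9 of 10 endothelial and 5 of 7 adipocyte markers were negative, with medians of -0.82, -0.82 and -1.37, and 10 of 12 luminal markers were positive, with a median of 0.36. All 10 macrophage markers were negative, with a median of -0.25. None of these markers passed the test.

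Values for each of the 2 dye channels were also worked out. Both come from the same loess log ratio and from mean brightness matched across arrays (Aquantile normalisation), so they are not independent of each other. In the tumour channel (Cy3) the member median of KO minus WT was 0.62, with 35 of 37 positive and 0 of 13351 genes called. The reference channel (Cy5), which holds the same RNA on every array, gave a member median of 0.10, with 31 of 37 positive and 36 genes called, none of them members. The medians of all genes were 0.07 and 0.05.

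**Figure D3:**
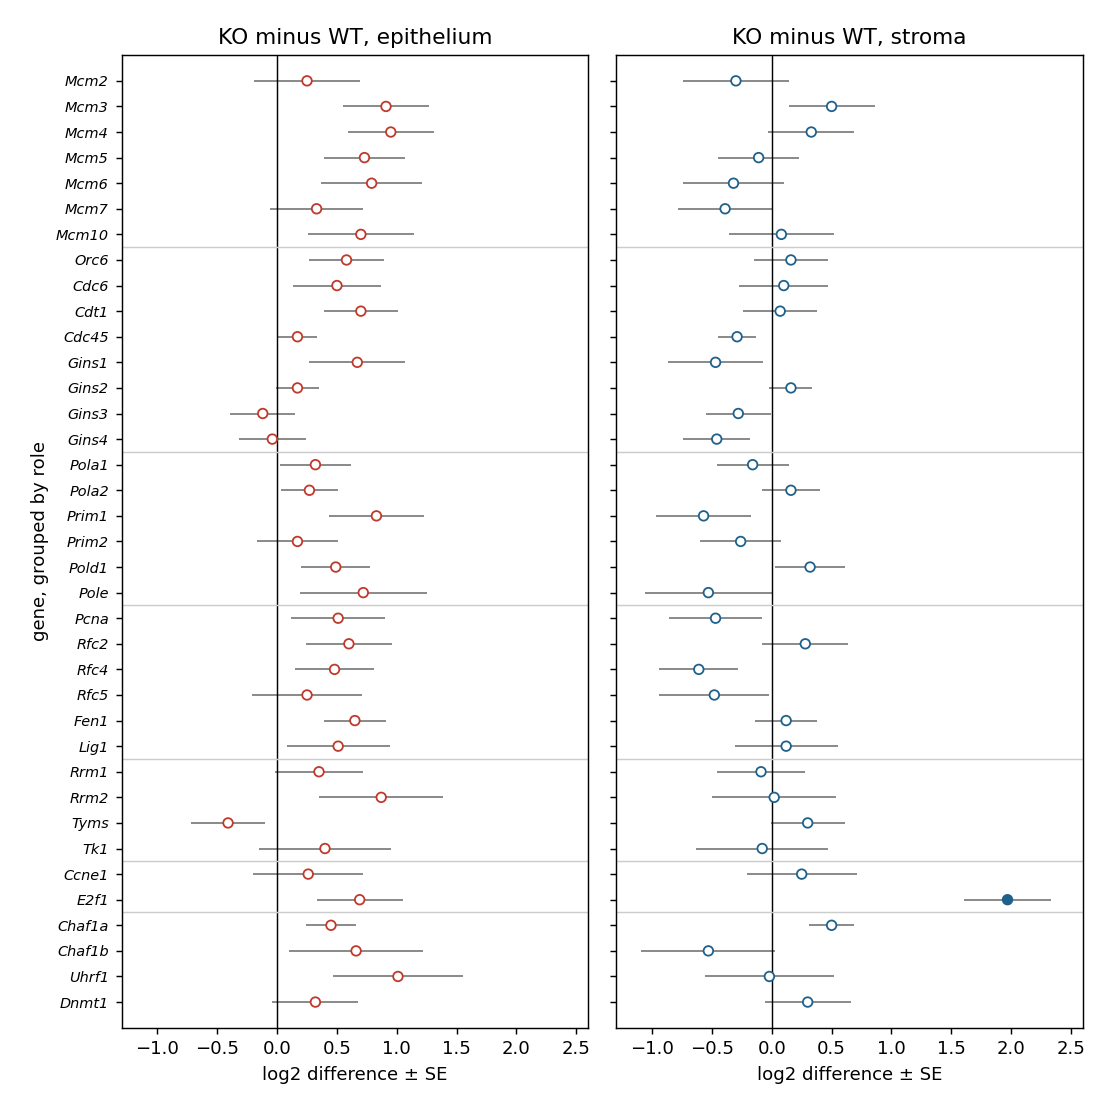
KO minus WT difference in log2 ratio (horizontal axis) of the 37 measured members in epithelium (left) and stroma (right), with bars of 1 standard error of the limma fit and filled points for an adjusted p under 0.05. In epithelium 34 of 37 lie to the right of 0 with none filled, and in stroma E2f1 at 1.97 is the filled point.

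Genes of the pathway outside the 40 gave a mixed picture in epithelium. Of 29 measured genes among 41 other replication factors, 24 were positive with a median of 0.31 and 0 were called, and the smallest p belonged to Mtbp (0.89, SE 0.27) and the fork protection gene Timeless (0.94, SE 0.33), both at an adjusted p of 0.613. All 17 measured mitosis genes of 22 were positive with a median of 0.83, where 7 had an unadjusted p under 0.05 and 0 were called, among them the kinase gene Aurka (0.97) and the spindle gene Tpx2 (1.15). The 14 measured genes of the Rb, E2F and cyclin list were closer to the background, with 9 positive and a median of 0.13, and the 7 inhibitors of cyclin-dependent kinases had 4 positive and a median of 0.20. Ccnd1 (0.55) and Ccna2 (0.87) had the smallest p of the first of these lists, and Cdkn1b (0.75) and Cdkn2d (0.66) of the second, none called. The 3 negative inhibitors, named after their values were seen, had the largest differences of that list, with -1.65 (SE 0.77) for Cdkn2a, -1.52 (SE 0.95) for Cdkn1a and -1.44 (SE 0.65) for Cdkn1c, at adjusted p from 0.616 to 0.690.

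In stroma the picture was different. E2f1 was the 1 member of 37 that was called, 3.90-fold higher in KO, while the 37 members lay around 0 (18 positive, 19 negative, median -0.02; 48.6% of all genes were positive). Called genes made up 6.45% of the 13351 tested here (861), 3.52% higher and 2.93% lower. A count of 1 in 37 is near that share and says nothing about the members as a set. E2f1 read 1.01, 0.98 and 1.28 on KO stroma 1, 3 and 4 and -0.98, -1.22 and -0.43 on WT stroma 1, 2 and 3. The 3 KO arrays were all above the reference and the 3 WT arrays all below it, and no epithelial array reached above -0.11. The difference was 1.97 (SE 0.36; limma adjusted p = 0.0161), with group means of 1.09 ± 0.17 and -0.87 ± 0.40 (SD, n = 3 per group). It was 1.92 in the tumour channel alone (adjusted p = 0.0103) and -0.04 in the reference channel. The adjusted p rose to 0.0639 without WT stroma 1 (difference 1.91) and to 0.0523 without WT stroma 2 (1.79). E2f1 has 1 probe, and in the RefSeq gene table the gene overlaps Necab3.

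None of the other members passed in stroma, those with E2F words in their promoters included. Mcm5 averaged -1.41 ± 0.56 in KO and -1.31 ± 0.14 in WT stroma (SD, n = 3 per group), Mcm6 -1.69 ± 0.74 and -1.37 ± 0.16, Cdc6 -0.83 ± 0.10 and -0.94 ± 0.08, and Uhrf1 -1.18 ± 0.78 and -1.16 ± 0.25. Ccne1 had -1.31 ± 0.32 and -1.56 ± 0.62. Apart from E2f1, Chaf1a was the only member with an unadjusted p under 0.05, a level that 21.5% of all genes passed. Chaf1a read -0.18, -0.50 and -0.35 in KO and -1.08, -0.75 and -0.71 in WT, so the groups did not overlap, with a difference of 0.50 (SE 0.19, adjusted p = 0.149) that was 1.01 with Agilent's processed signals and 0.29 in Cy3 alone. Groups without overlap were seen for 2 higher members (E2f1 and Chaf1a) and 3 lower ones (Rfc4, Cdc45 and Gins4), against 26.3% of all genes.

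Rfc4 read -2.47, -1.45 and -1.84 in KO and -1.42, -1.3 and -1.21 in WT stroma, a difference of -0.61 (SE 0.33, adjusted p = 0.325), and its second probe gave -0.39. Cdc45, above background on 1 of 3 KO and 3 of 3 WT arrays, read -0.46, -0.30 and -0.29 against -0.13, -0.08 and 0.01, a difference of -0.29 (SE 0.16, adjusted p = 0.333). Gins4 read -1.04, -0.65 and -0.64 against -0.06, -0.46 and -0.44, a difference of -0.46 (SE 0.28, adjusted p = 0.385). In these genes KO stroma 1 was the lowest array. It was also lowest for Prim1, with -2.98, -1.43 and -1.89 in KO and -1.65, -1.35 and -1.58 in WT (-0.57, SE 0.40, adjusted p = 0.463). Pcna read -3.09, -1.60 and -2.43 against -2.14, -1.80 and -1.78 (-0.47, SE 0.39, adjusted p = 0.549), and Gins1 -2.43, -1.17 and -1.06 against -0.99, -1.15 and -1.12 (-0.47, SE 0.40, adjusted p = 0.555). For Pcna KO stroma 3 was the highest of all 6 arrays, and for Gins1 KO stroma 4 lay within the WT range. Mcm3 and Pold1 pointed the other way without passing, Mcm3 with -1.47, -1.0 and -1.25 against -2.05, -1.78 and -1.39 (0.50, SE 0.36, adjusted p = 0.474) and Pold1 with -1.61, -0.97 and -1.04 against -1.69, -1.29 and -1.61 (0.32, SE 0.29, adjusted p = 0.575). Without KO stroma 1 the member median was 0.22 with 28 of 37 positive, and without any one of the other stromal arrays it was -0.13 to 0.08. Leaving out KO stroma 1 also brought Rfc4 to -0.34, Prim1 to -0.13, Pcna to -0.11 and Gins1 to -0.03, and Pold1 to 0.53. Leaving out KO stroma 3 gave -0.91 for Prim1, -0.85 for Pcna and 0.20 for Pold1, and leaving out KO stroma 4 gave -0.72 for Gins1. Cdc45 was -0.62 with Agilent's processed signals and -0.47 with an offset of 10 in place of 50 in the background correction, and Mcm3 was 0.24 in Cy3 alone.

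The other members had these stromal means for KO and WT. In the helicase family they were -1.35 and -1.05 for Mcm2, -1.0 and -1.33 for Mcm4, -1.52 and -1.13 for Mcm7, and -1.94 and -2.02 for Mcm10. Licensing and firing genes had -0.86 and -1.02 for Orc6, -2.0 and -2.08 for Cdt1, -0.19 and -0.35 for Gins2, and -0.91 and -0.63 for Gins3. Among the polymerase genes they were -1.31 and -1.16 for Pola1, 0.10 and 0.37 for Prim2, and -2.52 and -1.99 for Pole, whose KO stroma 1 value of -3.91 was the lowest of any member on any array. Pola2 was above background on 0 of 3 WT stroma arrays and 1 of 3 KO stroma arrays, so no fold is given for it. In KO stroma Cy3 was above background on 2 of 3 arrays for Pole and on 1 of 3 for Pola1 and Gins2. In WT stroma it was above on 2 of 3 arrays for Gins2, so these means are not firm. Clamp loader and maturation genes had -0.68 and -0.96 for Rfc2, -1.14 and -0.66 for Rfc5, -0.96 and -1.08 for Fen1, and -1.02 and -1.14 for Lig1. The nucleotide genes had -1.15 and -1.06 for Rrm1, -2.13 and -2.15 for Rrm2, 0.10 and -0.20 for Tyms, and -1.72 and -1.64 for Tk1. Chromatin genes had -1.77 and -1.24 for Chaf1b and -0.11 and -0.41 for Dnmt1. SDs in KO stroma ran from 0.05 (Cdt1) to 1.39 (Chaf1b), and in WT stroma from 0.02 (Cdt1) to 0.62 (Ccne1).

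Around E2f1, 2 genes of the Rb, E2F and cyclin list were called lower in KO stroma out of 14 measured, where 2.93% of all genes were called lower. Rb1, the retinoblastoma gene whose product binds E2F1, read -0.52, 0.31 and 0.11 in KO and 2.80, 2.53 and 1.80 in WT stroma (difference -2.41, SE 0.31, limma adjusted p = 0.00581). All 6 epithelial arrays held Rb1 at 1.48 or more, so the KO stroma arrays stood apart from the other 9 in Rb1 as in E2f1. Ccnd1, the cyclin that starts Rb phosphorylation, read -0.88, -0.53 and -0.57 against 0.81, 0.20 and 0.08 (-1.03, SE 0.23, adjusted p = 0.0284). None of the other replication factors (29 measured, median -0.04), kinase inhibitors (7, median 0.27) or mitosis genes (17, median 0.12, 11 positive) was called.

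Cell type markers also differed in this comparison. Of all genes 48.6% were positive, 3.52% were called higher and 2.93% lower. Fibroblast markers were positive in 15 of 15 with a median of 2.47, and 6 were called higher, among them Fstl1 (3.49), Fap (2.68), Col5a1 (3.21) and Fbn1 (2.47). Of 10 macrophage markers 3 were called higher (Fcer1g 2.20, C1qc 1.96, Aif1 1.14) and Cd14 lower (-1.15), with array medians of 2.45 to 3.36 in KO and 1.12 to 1.86 in WT stroma. Of 12 luminal markers 6 were called lower, with a median of -1.48 over the list, including Cldn3 (-2.34) and Elf5 (-3.05). No gene of the other lists was called, but basal markers were negative in 7 of 8 (median -1.36) and T cell markers in 7 of 7 (median -1.37), while adipocyte markers were positive in 7 of 7 (median 1.37) and endothelial markers in 9 of 10 (median 0.93). The part of these cells in the difference of E2f1, Rb1 and Ccnd1 was not tested. In KO epithelium, where fibroblast medians were -2.52 to -1.05, E2f1 lay at -0.90 to -0.11. In WT epithelium the fibroblast medians were -1.82 to 0.06 and E2f1 lay at -1.99 to -0.52. For WT stroma they were -0.51 to 1.18 and -1.22 to -0.43, and for KO stroma 2.58 to 3.29 and 0.98 to 1.28.

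**Figure D4:**
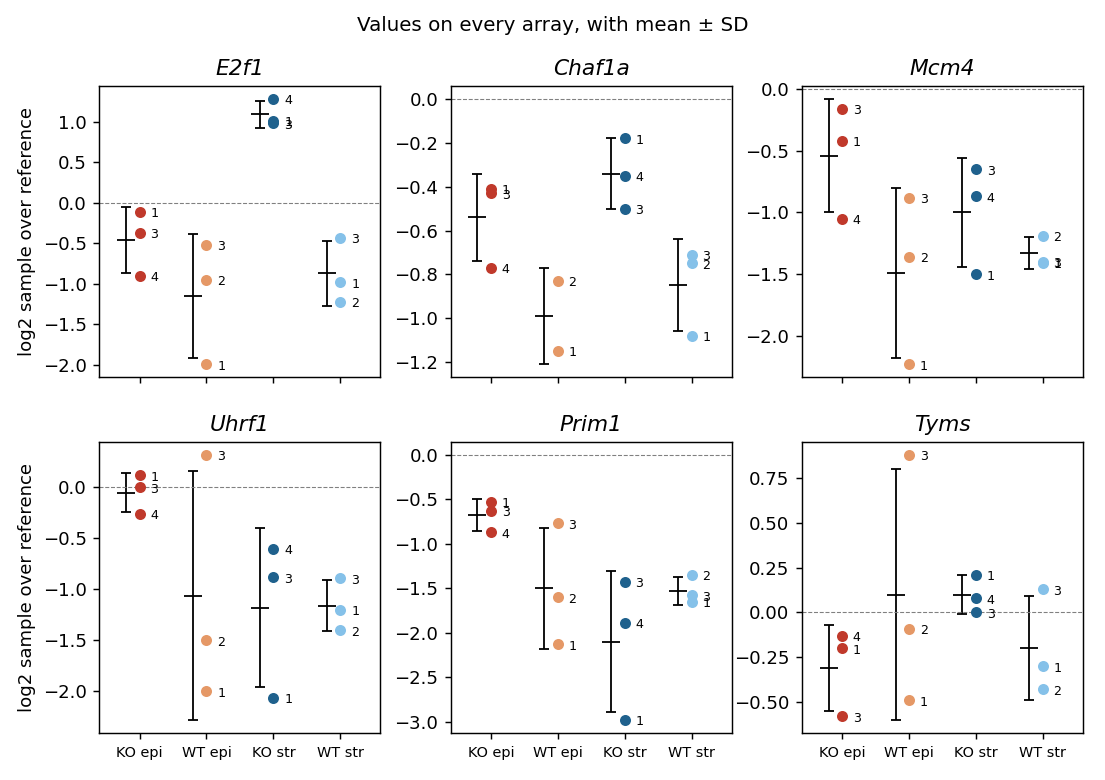
Log2 ratio of sample over reference (vertical axis, scaled per gene) of 6 members in KO and WT epithelium and stroma, each point an array with its tumour number and the bars mean ± SD (n = 3, and n = 2 for Chaf1a in WT epithelium). E2f1 lies at 0.98 to 1.28 in KO stroma and below 0 elsewhere, while Mcm4, Uhrf1 and Prim1 have their lowest epithelial value on WT array 1.

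Stroma was compared with epithelium within each tumour, with the tumour as a block. Here 32 of 37 members were lower in stroma, with a median of -0.33, and 1 was called, E2f1, which was higher by 0.91 (SE 0.22, limma adjusted p = 0.0370). In all, 2000 of 13351 genes were called (15%, with 8.36% higher and 6.62% lower), 53.3% of genes were negative, and the median of all genes was -0.03. No member had the same sign in all 6 tumours, against 15% of all genes. Stroma minus epithelium of E2f1 was 1.11, 1.36 and 2.19 in KO tumours 1, 3 and 4 and 1.01, -0.27 and 0.09 in WT tumours 1, 2 and 3, so the KO tumours carried most of it. Its call was lost when any tumour but WT 2 was left out (differences 0.73 to 1.02, adjusted p from 0.0617 to 0.0980) and with Agilent's processed signals (0.88, adjusted p = 0.0695).

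The members with the next smallest p were lower in stroma but did not pass. Pola1 had tumour differences of -1.0, -0.38 and -0.79 in KO and 0.22, -0.44 and -0.52 in WT (mean -0.48, SE 0.15, adjusted p = 0.0782), but its Cy3 signal exceeded background on only 1 of the 3 arrays of KO stroma, so the KO values are not firm. It moved to -1.36 with Agilent's processed signals (adjusted p = 0.0714), -0.78 with offset 10 (adjusted p = 0.0541) and -0.95 in Cy3 alone, where it passed (adjusted p = 0.0137). Rfc4 had -1.88, -0.70 and -0.96 in KO and 0.28, 0.21 and -0.76 in WT (-0.64, SE 0.21, adjusted p = 0.0942), and Prim1 -2.45, -0.80 and -1.02 and 0.48, 0.25 and -0.80 (-0.72, SE 0.27, adjusted p = 0.122). In Rfc4 and Prim1 all KO tumours and WT tumour 3 were negative and WT tumours 1 and 2 positive. Pcna had -1.78, -0.58 and -0.65 in KO and 0.35, 0.04 and -0.46 in WT (-0.51, SE 0.20, adjusted p = 0.139), and Prim2 -1.28, -0.21 and -0.72 and 0.16, -0.09 and -0.97 (-0.52, SE 0.20, adjusted p = 0.139). Without KO tumour 1 Prim1 was at -0.47 and Pcna at -0.32, and the mean of both Rfc4 probes gave -0.40.

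By tumour, the number of members lower in stroma was 33, 29 and 21 of 37 in KO tumours 1, 3 and 4, with medians of -1.28, -0.32 and -0.16. It was 3 and 13 of 37 in WT tumours 1 and 2 and 32 of 36 in WT tumour 3, with medians of 0.38, 0.10 and -0.54. WT tumours 1 and 2, where members were not lower in stroma, are those with the low epithelial arrays. Within KO tumours, 2 members were called lower in stroma, Rfc4 (-1.18, SE 0.30, limma adjusted p = 0.0379) and Prim1 (-1.42, SE 0.38, adjusted p = 0.0432). E2f1 was called higher (1.55, SE 0.31, adjusted p = 0.0173). The member median was -0.60, and 20% of all genes were called, 10.2% higher and 9.86% lower. Both falls were largest in KO tumour 1 (-1.88 and -2.45). The second Rfc4 probe, above background on 1 of 3 KO stroma arrays, was not lower in stroma of KO tumour 4 (-0.28 against -0.44 in epithelium). Calls within a genotype were not tried under other settings. Within WT tumours 0 of 37 members and 1 of 13351 genes were called (0.00749%), with a member median of -0.07. Without KO tumour 1 the median over all tumours was -0.11, and without WT tumour 3 it was -0.19.

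Whether the genotype difference itself differed between the compartments was tested with an interaction term. No member and 0 of 13351 genes (0%) passed in limma, where 18.1% of genes had an unadjusted p under 0.05. As a signed value, KO minus WT was lower in stroma than in epithelium for 34 of 37 members, with a median interaction of -0.48. The median of all genes was -0.06 and 54.6% were negative. A negative interaction can mean a smaller rise, a larger fall or a turned sign, as for Rfc4 (0.48 in epithelium and -0.61 in stroma). E2f1 had the smallest p, with 1.27 (SE 0.43, adjusted p = 0.207), followed by Prim1 (-1.40, SE 0.54, adjusted p = 0.243), Rfc4 (-1.09, SE 0.43, adjusted p = 0.250), Pcna (-0.98, SE 0.40, adjusted p = 0.271) and Tyms (0.71, SE 0.30, adjusted p = 0.283). Cdc45 had -0.46 (SE 0.23, adjusted p = 0.337), with -1.24 from Agilent's processed signals and -0.71 with offset 10. Without KO tumour 1 Prim1 had -0.89 and Pcna -0.59, and Tyms had 1.26 in Cy3 alone. Tyms read 0.21, 0.00 and 0.08 in KO and -0.30, -0.43 and 0.13 in WT stroma. Its differences were 0.30 in stroma and -0.41 in epithelium. Opposite signs were common among members, in the other direction, since 34 of 37 were positive in epithelium and 18 of 37 in stroma. Without KO tumour 1 the interaction median was -0.17, with 25 members negative, without WT tumour 1 it was -0.28, and without KO tumour 4 or WT tumour 3 it was -0.74 or -0.79. The E2f1 difference between genotypes, called in stroma and not in epithelium, is thus not shown to differ between the compartments.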

How the data were processed

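Total RNA of microdissected epithelium and stroma (Cy3) was hybridised against a universal mouse reference RNA (Cy5), per the labels, with no dye swap. The scanner files hold each spot's median intensity and local background intensity, per the file headers, which name Agilent Feature Extraction 10.7.3.1 and build mm9, together with intensity after Agilent's own correction and the log10 ratio (red over green). How the log2 values of the deposited value table were made is not stated. Its 6 epithelial columns followed the scanner ratios with the sign turned (r of -0.997 to -0.977 across spots, which are not independent; column medians -0.05 to 0.02), and its 6 stromal columns did not follow their own arrays (r at most 0.008 in size; column medians -0.01 to 0.05). Scale, direction and order of rows of the stromal columns are unknown, and they were left out.

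An array holds 62976 spots including 3671 controls. Normexp (offset 50) on median signals and loess within array, with controls at weight 0, gave log2 sample over reference; spots flagged non-uniform were dropped. Of 55681 probes 27235 were named by RefSeq accession (20660 genes, table of GRCm38.p6, used for names and promoters only). Probes well above background in Cy3 on at least 3 of 12 arrays were kept, and the brightest stood for a gene (13351 genes).

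Tests used limma 3.58.1 in R 4.3.3 with Benjamini-Hochberg adjustment over all 13351 genes at 0.05: 4 group means over 12 arrays (8 residual degrees of freedom) for KO against WT, and tumour as a fixed block (4 degrees of freedom) for stroma against epithelium and the interaction. The scripts were tested on simulated data. Same-numbered epithelium and stroma of a genotype were taken as one tumour from their titles; their deviations from group means correlated at 0.09 to 0.45, against at most 0.02 with the other stroma arrays of the group. Deviations from a group mean cancel out over the group's arrays, so a positive correlation with one stroma array lowers those with the others. KO and WT arrays of one number correlated at -0.30 to 0.30, a range that reaches the values within tumours. Whether numbers also pair genotypes is not settled by these values. Array values are given for the 10 smallest p of KO against WT in each compartment and the 6 smallest p of the other comparisons, and of other lists for up to 4 called genes or the 2 smallest p. Members, lists and this rule were chosen with earlier results of these data known. Figures were drawn with matplotlib in Python.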

Additional observations from a re-analysis of the deposited data

How the results depend on the processing

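The 32 named results kept their direction over 33 settings. They were chosen for their small p in these same data, which favours a stable sign. Of 700 values none reversed, 691 kept their side of the threshold and 8 lost it (all E2f1). Only 1 gained it (Pola1 between compartments in Cy3 alone, -0.95, limma adjusted p = 0.0137). The median of all measured members in stroma was less stable, from -0.13 to 0.22 over arrays left out, with 13 to 28 positive. The epithelial member median was 0.42 to 0.62 over processing settings and 0.25 to 0.86 over arrays left out, with 0 members called in each. The 1 gene called in epithelium became 0 with Agilent's processed signals, offset 10, the filter on all 12 arrays, Cy3 alone, the 6 arrays alone, the deposited table and the same number as a replicate block (member median 0.58 with that block), and 0 to 1 with arrays left out. In stroma 294 genes passed in the 6 arrays alone and 175 to 934 with arrays left out (members 0 to 1; 175 without WT stroma 1, 314 without KO stroma 1, 353 without WT stroma 2 and 514 without KO stroma 3). Between compartments 0 members passed with Agilent's processed signals and 3 in Cy3 alone (E2f1, Pola1 and Tyms, with 3305 genes), and tumours left out gave 0 to 1 members and 930 to 1379 genes (930 to 1125 without any tumour but WT 2). For the interaction, where 0 genes passed, 54 did with no background subtraction, 119 with scaled ratios, 83 with the filter on all 12 arrays, 22 with no filter, 101 with array weights, 34 in Cy3 alone, 50 with no replicate block and 0 to 144 with tumours left out, and 0 members in each. The tumour as a random replicate block changed no member's call (1 gene in epithelium, 824 in stroma). Aquantile leaves ratios as they are, so it has no values of its own. The cause of these changes was not tested. Signal over background left Orc1, Ccne2 and Rfc3 unmeasured, and 3 arrays a group limit every comparison.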
